A study of Mus musculus with 12 samples.

Results

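The cytosolic ribosomal protein genes were taken from the gene-level count table by symbol: Rpl or Rps with a number and, in some, a final a, l or x, together with Rpsa, Rplp0, Rplp1 and Rplp2. Such a symbol was carried by 82 of the 24795 genes, of which 79 (47 of the large and 32 of the small subunit) had at least 10 counts in at least 3 libraries. Livers of male mice gave 4 groups of 3 libraries. KO LS (S10, S11 and S12) and KO MS (S7, S8 and S9) are Scly KO mice fed the low and the adequate selenium diet, and WT LS (S1, S2 and S3) and WT MS (S4, S5 and S6) are wild-type mice fed the same diets. Scly KO mice lack selenocysteine lyase, which releases selenium from selenocysteine, and were kept as a homozygous colony, while the wild-type (WT) mice were C57BL/6N bred in-house, so that genotype and colony cannot be told apart. From weaning, all mice had been fed for at least 8 weeks a defined diet with selenium as sodium selenite, at 0.08 ppm in the low and 0.25 ppm in the adequate diet. The libraries were made from poly(A) RNA with a kit that keeps the strand. Nothing in the sources ties every library to its own mouse, so a p-value here reflects only how far libraries of a group differed, which may be technical.

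Each cytosolic ribosome joins a small subunit, which reads the mRNA, to a large subunit, which forms the peptide bond, and nearly every ribosomal protein is built onto ribosomal RNA in the same amount. The mRNAs of these proteins start with a cytosine and a run of pyrimidines, the terminal oligopyrimidine (TOP) motif, through which mTOR and the RNA-binding protein LARP1 control their translation and stability together. Liver makes large amounts of secreted protein, and its ribosome content is known to follow nutrition. The transcripts are short and abundant, and most of the genes have processed pseudogene copies.

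The start sites are shown first because the shared start is what defines these mRNAs as a regulatory family. The RefSeq promoter table (GRCm38.p6, the mm10 assembly) held 58 of the 79 genes, with 69 start sites in all. The lines below give 10 bases before and the first 20 bases of the annotated transcript (5′ untranslated region, exon 1), 5′ to 3′ on the strand of the gene, with the part inside the window of the longest pyrimidine run that reaches it in capitals. Rps21, Rps18 and Rpl9 had the smallest p values between the Scly KO groups, Rpl4 and Rpl28 were among the steadiest genes, and the others are the acidic stalk protein Rplp2, the S6 kinase substrate Rps6, Rpl13a and Rps12. These others were picked without a stated rule and have runs of 10 to 14 pyrimidines, so the sites shown do not represent the family. Among genes not shown, the longest run was 3 in Rpl5, Rpl10 and Rpl41 and 17 in Rpl11.
Rps21, chr2:180257369-180257398, plus strand: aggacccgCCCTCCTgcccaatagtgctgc
Rps18, chr17:33955646-33955675, minus strand: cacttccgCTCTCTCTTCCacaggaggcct
Rpl9, chr5:65391412-65391441, minus strand: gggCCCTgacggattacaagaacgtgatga
Rps6, chr4:86857348-86857377, minus strand: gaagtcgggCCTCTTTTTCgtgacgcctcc
Rplp2, chr7:141447641-141447670, plus strand: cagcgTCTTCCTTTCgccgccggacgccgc
Rpl13a, chr7:45128726-45128755, minus strand: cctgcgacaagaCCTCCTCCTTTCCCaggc
Rps12, chr10:23787190-23787219, minus strand: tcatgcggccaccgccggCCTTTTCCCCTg
Rpl28, chr7:4792955-4792984, plus strand: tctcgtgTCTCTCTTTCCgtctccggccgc
Rpl4, chr9:64173377-64173406, plus strand: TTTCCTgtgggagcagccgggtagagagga
A run of at least 8 pyrimidines reached this window in 46.4% of the 69 start sites of these genes, against 16.9% of all 32851 in the table. The annotated transcript began with C and at least 4 more pyrimidines in 20.3%, against 2.51% of all. The ETS-type motif CCGGAAG, searched on both strands over the whole 300 bases of each entry, was in 36.2%, against 8.86% of all, and its reverse complement contains pyrimidines, so it can overlap the run. The run of 11 pyrimidines in Rpl28 crosses the annotated start. The run of 14 in Rpl4, which continues upstream of the bases shown, ends before the annotated start. So does the run of 4 in Rpl9, which had the lowest log2 fold change between KO LS and KO MS. Whether the annotated starts are those used in these livers was not tested, nor was a link between runs and fold changes. The 31 genes with a run of at least 8 had a median log2 fold change of -1.10 for KO LS against KO MS, and the 27 genes without one had a median of -0.94.

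The total count ranged from 10024908 to 11762165 in KO LS, from 7856891 to 9651901 in KO MS, from 4797067 (S1) to 8901293 in WT LS and from 7561008 to 9291902 in WT MS. As a check of the labels, Scly had 4.97, 5.10 and 4.84 CPM (counts per 1000000 counts after TMM normalization) in KO LS and 6.35, 6.90 and 6.32 CPM in KO MS, against 83.1, 77.5 and 73.1 CPM in WT LS and 92.2, 105 and 88.3 CPM in WT MS. Rn45s, the precursor of ribosomal RNA, took 2.45% to 4.54% of the counts in KO LS, 17.0% (S7), 19.9% (S8) and 2.94% (S9) in KO MS, 5.67% to 9.23% in WT LS and 4.47% to 8.498% in WT MS. S12 was the library least like the others, with a mean Spearman correlation of 0.873 across genes, against 0.912 to 0.964 for the rest. Summed erythroid markers (5 of 5 tested) reached 1021 and 860 CPM in S7 and S8, against 230 to 725 CPM in the other libraries, and Kupffer cell and macrophage markers (6 of 6) 344 and 254 CPM, against 118 to 252 CPM. Summed bile duct markers (3 of 5 tested) were 285 CPM in S12, against 22.8 to 41.4 CPM in the other libraries, and stellate cell markers (5 of 5) were 561 CPM, against 175 to 324 CPM. Hepatocyte markers (6 of 6) were lowest in S12 (62650 CPM) and in S1 (70820 CPM), and ranged from 90240 to 113000 CPM elsewhere. In the 3 KO LS libraries the summed endothelial markers (5 of 5) were 171 to 204 CPM and the Kupffer cell and macrophage markers 118 to 150 CPM, below every WT library (217 to 279 CPM and 170 to 252 CPM), as most ribosomal protein genes were. In KO MS the endothelial markers were 226 to 296 CPM, highest in S7. T and B lymphocyte markers (1 of 5 tested) were 4.42 CPM in S7, against 1.54 to 3.14 CPM elsewhere. No marker of these lists was at 0 in all libraries, and their part in the results below was not tested. In these bulk samples, fewer cells of a type and less RNA per cell cannot be told apart.

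The 79 genes together took 0.795% ± 0.085 of all counts in KO LS, 1.12% ± 0.365 in KO MS, 1.04% ± 0.102 in WT LS and 0.994% ± 0.102 in WT MS (SD, n = 3 each). Within KO MS the share was 1.51% in S7, 1.06% in S8 and 0.785% in S9, so KO MS held the highest share of the 12 libraries and also one inside the KO LS range of 0.733% to 0.892%. With Rn45s left out of the total, the share was 1.82%, 1.32% and 0.809% in S7, S8 and S9, and 0.751% to 0.927% in KO LS, against 1.04% to 1.28% in WT LS and 0.921% to 1.17% in WT MS. The share in each KO LS library was then lower than in each WT LS library, as it was with Rn45s counted (0.967% to 1.16% in WT LS).

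Per kilobase of transcript, the mean level over the 12 libraries was highest for Rpl41, the shortest ribosomal protein (931 CPM per kb), followed by Rps15 (504), Rps14 (426), Rpl13a (386) and Rps18 (366). The lowest were Rps15a (9.10 CPM per kb), Rpl30 (15.4), Rps4l (17.0), Rpl34 (18.2) and Rpl32l (18.6). The length is that of 1 representative transcript per gene and is unusually long for Rps15a (5179 bases), against a median of 791 bases for the 79 genes. Some estimates may also share reads with copies: 70 of the 79 genes had a stretch of at least 100 bases with at least 97% identity in a transcript of another gene, up to 34 such genes for Rpl21. A copy alone does not show that reads were divided, since 54 of the 79 genes, Rpl21 among them, had whole values in every library. Only 75.7% of the values of the 79 genes were whole numbers within 0.02, against 93.6% over all genes, and the values of Rpl30 and Rpl34 were not whole in 10 and 11 of the 12 libraries. For such genes the level depends on how the counting divided reads between copies. This applies to Rps18, which had 4 copies and values that were not whole in any of the 12 libraries, while Rpl9 had 8 copies but whole values. Rps14, Rps21, Rpl4, Rpl22, Rps27l and Rps4l had no such copy and whole values throughout.

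The genes rose and fell together from library to library, and the first principal component of their log2 levels carried 84.8% of the variation. Relative to each gene's own mean over the 12 libraries, on the log2(CPM + 0.5) scale, the median of the 79 genes was -0.50, -0.35 and -0.65 in S10, S11 and S12 (KO LS) and 0.998, 0.44 and -0.41 in S7, S8 and S9 (KO MS). It was 0.22, 0.11 and 0.00 in S1, S2 and S3 (WT LS) and -0.17, 0.07 and 0.26 in S4, S5 and S6 (WT MS). S7 was the highest library for 62 of the 79 genes, and of all other tested genes it was the highest for 23.9%. After TMM scaling S12 was the lowest library for 61 genes, against 24.6% of all other tested genes. Before that scaling S12 ranked differently. Its share of all counts on the 79 genes (0.892%) was the highest in KO LS and above S9 (0.785%) and S4 (0.879%). Both subunits moved alike: in S7 the median was 0.87 for the large and 1.16 for the small subunit, and in S12 it was -0.60 and -0.73.

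**Figure D1:**
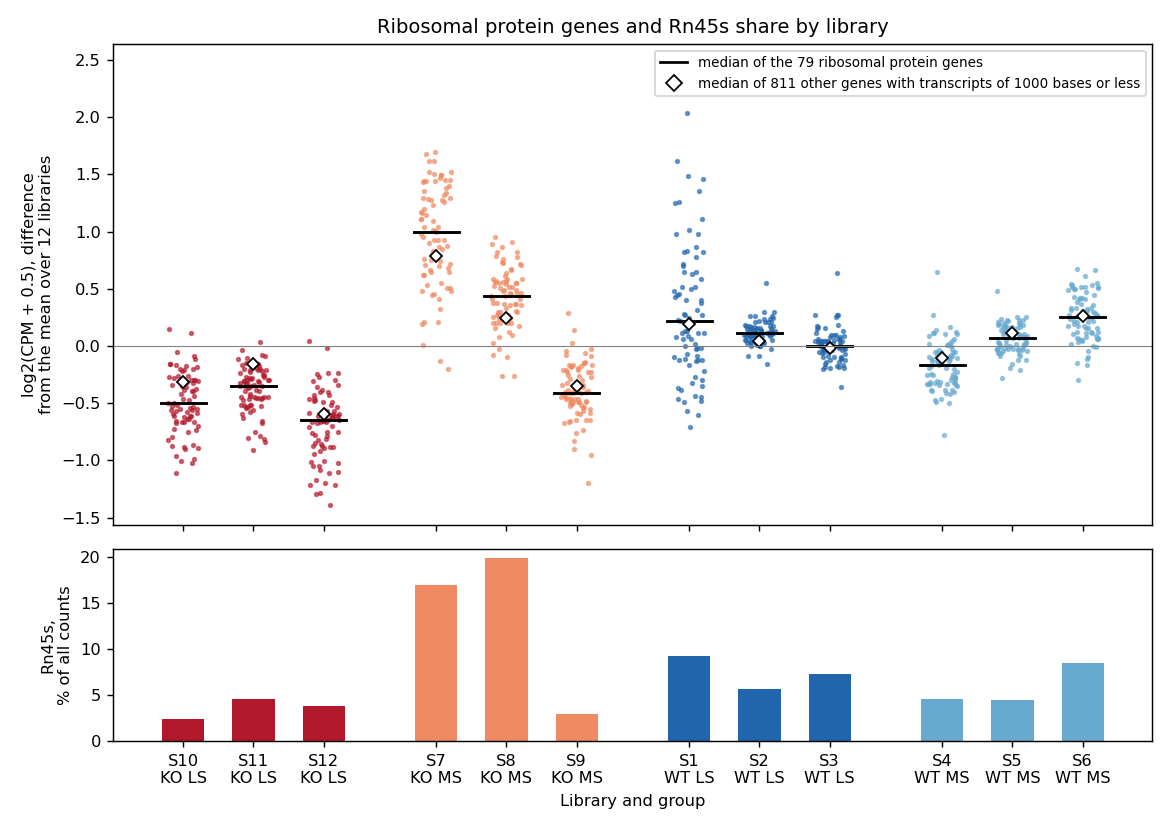
Upper panel: log2(CPM + 0.5) of each of the 79 ribosomal protein genes (points) as the difference from the gene's mean over the 12 libraries, with their median (bar) and the median of 811 other genes with short transcripts (diamond). Lower panel: Rn45s as a percentage of all counts. The median of the ribosomal protein genes is 0.998 in S7 and 0.44 in S8, the libraries with 17.0% and 19.9% Rn45s, and lies between -0.65 and -0.35 in S9 and the 3 KO LS libraries.

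S9 stood apart from the other libraries of its group and had levels near those of KO LS. In S9, 56 of the 79 genes were below all 6 WT libraries, as were 62 in S10, 54 in S11 and 74 in S12, while for all other tested genes this held for 18.6% in S9, 20.5% in S10, 13.2% in S11 and 30.6% in S12. In S7, 65 genes were above all 6 WT libraries, and in S8, 38 genes, against 29.0% and 17.1% of all other tested genes. Leaving aside S7 and S8, the other Scly KO libraries were the 4 with the lowest medians of the ribosomal protein genes. Their Rn45s shares were 2.45% (S10), 3.83% (S12) and 2.94% (S9), below the WT range of 4.47% to 9.23%, and 4.54% (S11), inside it. A fit with Rn45s left out was 1 of 10 other settings. Under these the median lay between -0.63 and -0.55 for KO LS against WT LS, and between -0.97 and -0.90 for KO LS against KO MS. Whether the levels of these genes go with the Rn45s share was not tested.

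**Figure D2:**
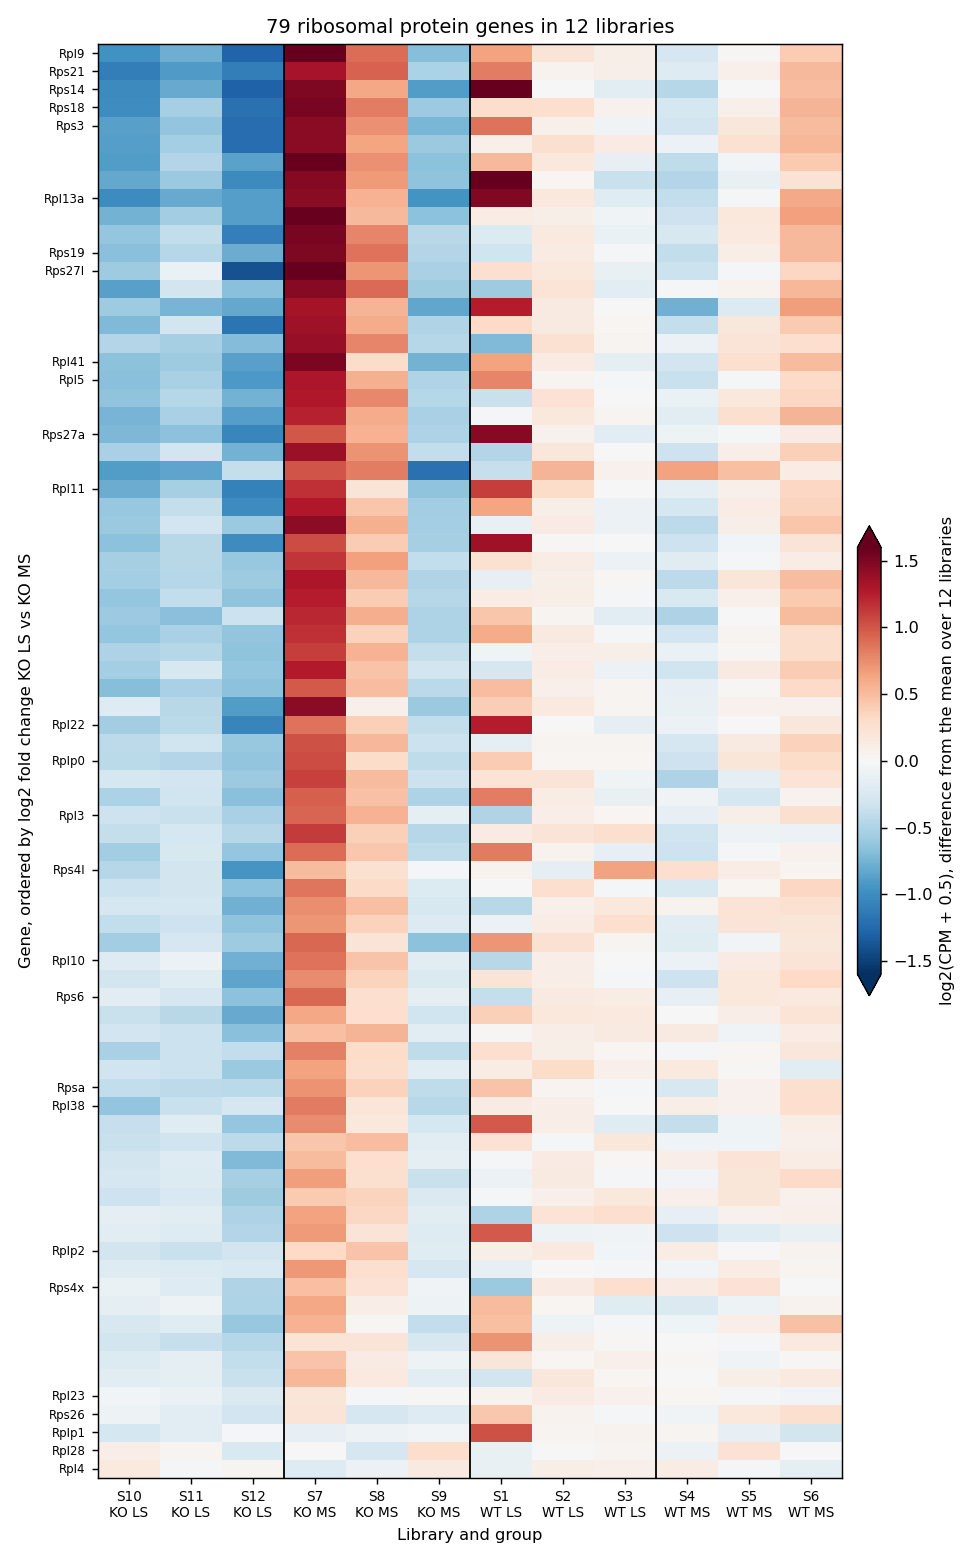
Each row is a ribosomal protein gene (some are labelled) and each column a library, and colour gives log2(CPM + 0.5) as the difference from the gene's mean over the 12 libraries, with the darkest shades also covering values beyond the scale. Rows follow the log2 fold change of KO LS against KO MS, from Rpl9 (-1.94) at the top to Rpl4 (0.10) at the bottom, and the columns of S7 and S8 are opposite to S9.

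Low against adequate selenium in Scly KO had, with all 12 libraries, the median farthest from 0 of the comparisons between 2 groups. Of the 79 genes 78 had a negative log2 fold change, with a median of -0.94, against 46.7% negative and a median of 0.06 over all 12009 tested genes. The exception was Rpl4 (0.10). The median was -0.81 for the large and -1.19 for the small subunit. No gene of the family passed an adjusted p of 0.05 in edgeR's quasi-likelihood test, in which 0% of all genes were called, and the smallest adjusted p was 0.201. At an unadjusted p under 0.05, 66 of the 79 were lower and none higher, against 21.9% of all tested genes in either direction. DESeq2 gave 67 of them an adjusted p and called 29, all lower, against 4.79% of all genes with an adjusted p, and limma-voom with quality weights called 71, all lower, against 49.9% of all genes. The 3 tools thus differed in the call, and the value rests on the split within KO MS. Without S9, edgeR called 67 of the genes (median -1.24), against 32.5% of all 12258 genes then tested. Without S7 the median was -0.60. Without both S7 and S8, with S9 then alone in KO MS, it was -0.13 with 66 of 79 negative.

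Rps21, a protein of the small subunit, had the smallest p of the family in this comparison. Rps21 had 15.9, 18.4 and 15.9 CPM in KO LS (S10 to S12), and 87.9, 67.8 and 24.3 CPM in KO MS (S7 to S9), against 62.2, 36.1 and 37.3 CPM in WT LS (S1 to S3) and 30.2, 37.0 and 50.2 CPM in WT MS (S4 to S6). The KO LS libraries lay below all 9 others, with S9 the next lowest. For KO LS against KO MS this was a log2 fold change of -1.84 (SE 0.395, unadjusted p = 0.000433, adjusted p = 0.201 from edgeR), and DESeq2 gave it no adjusted p.

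Rpl9, a large-subunit protein, had 42.7, 48.4 and 34.1 CPM in KO LS and 271.6, 155.9 and 52.2 CPM in KO MS, against 131.4, 96.96 and 89.6 CPM in WT LS and 69.4, 84.9 and 111.2 CPM in WT MS. Rps18, in the head of the small subunit, had 89.9, 124.0 and 77.9 CPM in KO LS and 513.2, 317.2 and 119.3 CPM in KO MS, against 217.4, 215.0 and 187.0 CPM in WT LS and 147.4, 189.6 and 260.7 CPM in WT MS. In both genes S7 was the highest library of all and S9 was below every WT library, and for Rps18 the S9 value fell inside the KO LS range. Their log2 fold changes for KO LS against KO MS were -1.94 (SE 0.447) and -1.70 (SE 0.422), each with adjusted p = 0.201 from edgeR, and in DESeq2 the adjusted p was 0.0135 for Rpl9 and 0.0225 for Rps18. Rpl36 (-1.59), a short large-subunit protein, and Rps3 (-1.62), at the mRNA entry of the small subunit, were of similar size. Groups did not overlap, with KO LS lower, for 29 of the 79 genes, against 5.33% of all tested genes.

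**Figure D3:**
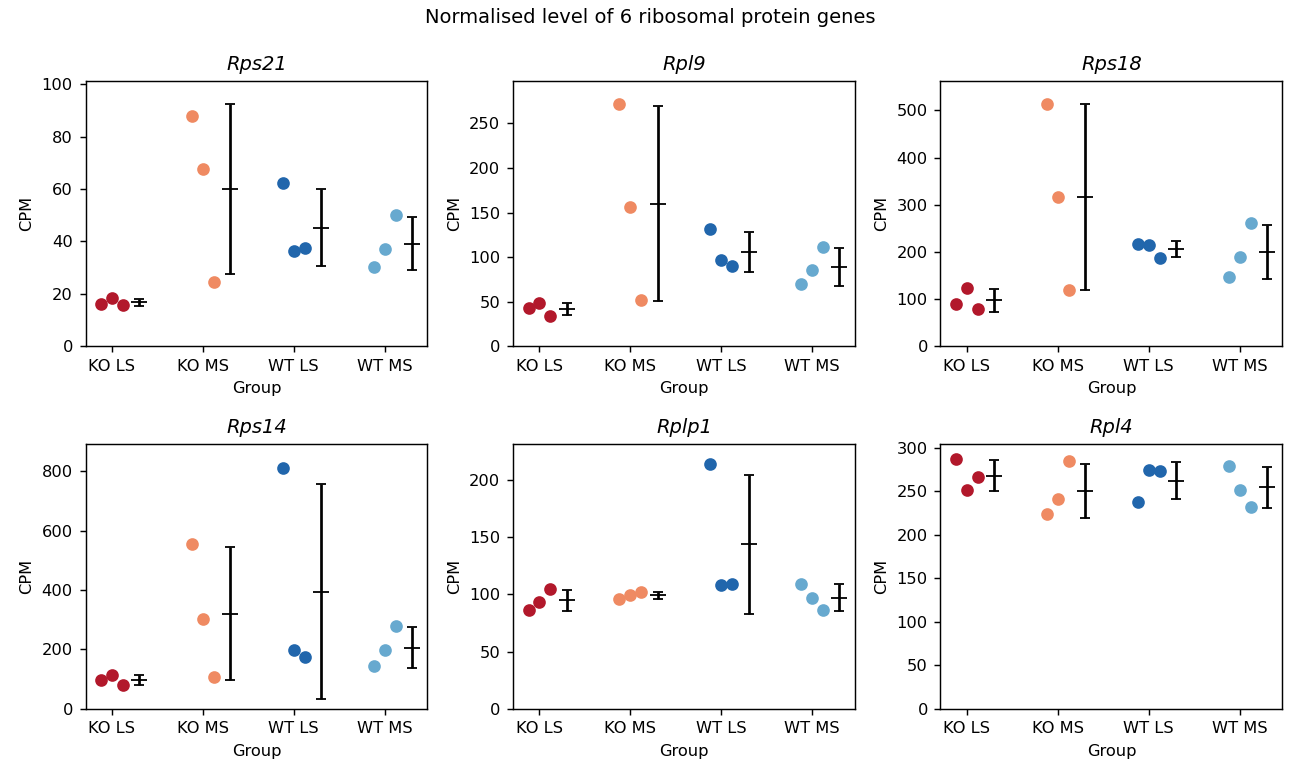
CPM of 6 ribosomal protein genes in each library (coloured points, 3 per group in library order), with the mean and SD of the group beside them (black). Rps21, Rpl9 and Rps18 have S7 highest and S9 near KO LS, Rps14 and Rplp1 have S1 highest (812 and 214 CPM), and Rpl4 stays between 224 and 287 CPM.

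Scly KO against WT on low selenium gave lower levels for most of the family, and S7 and S8 are in neither group. Of the 79 genes 77 had a negative log2 fold change, with a median of -0.60, against 45.8% negative and a median of 0.06 over all tested genes, and both subunits had about the same median (-0.60 for the large and -0.61 for the small subunit). Groups did not overlap, with KO LS lower, for 63 of the 79 genes, against 11.8% of all tested genes. By edgeR no gene of the family was called after adjustment (0.00833% of all genes, which is Scly alone) and the smallest adjusted p was 0.439. At an unadjusted p under 0.05, 34 of the 79 were lower and none higher, against 11.2% of all genes. DESeq2 called none (0.393% of all genes) and limma-voom called 3, all lower (0.749% of all genes). Every library left out in turn kept the median between -0.68 and -0.59.

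The smallest p values here were those of Rps21 (log2 fold change -1.43, SE 0.393), Rps27a (-1.45, SE 0.426), Rpl11 (-1.34, SE 0.409) and Rps14 (-2.03, SE 0.626), each with adjusted p = 0.439 from edgeR. Rps27a, which is made as a fusion with ubiquitin, had 34.5, 36.2 and 27.6 CPM in KO LS, against 158.9, 60.0 and 50.4 CPM in WT LS. Rpl11, a partner of the smallest ribosomal RNA that can bind the p53 regulator Mdm2, had 44.1, 53.0 and 35.9 CPM in KO LS, against 166.4, 94.1 and 76.5 CPM in WT LS. All of these groups were separate, and in each the S1 library was far above S2 and S3. Without S1 the log2 fold change was -0.76 for Rps27a, -0.945 for Rps14, -0.95 for Rpl11 and -1.14 for Rps21.

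On adequate selenium the direction was opposite. Of the 79 genes 75 had a positive log2 fold change for KO MS against WT MS, with a median of 0.40, against 54.8% positive and a median of 0.03 over all tested genes. By edgeR none was called (0.00833% of all genes), none had an unadjusted p under 0.05 (0.924% of all genes), and the smallest adjusted p was 0.9995. DESeq2 called none (0.0251% of all genes), while limma-voom called 18 higher and 1 lower (7.54% of all genes). The direction rests on S7 and S8: without S7 the median was 0.03, and without both it was -0.49, with 75 of the 79 genes negative S9 then being alone in KO MS and taken to spread as the remaining groups do. Rpl27, a large-subunit protein, had the smallest p of a positive change, with 96.8, 64.3 and 35.6 CPM in KO MS, against 31.8, 40.6 and 52.6 CPM in WT MS (log2 fold change 0.65, SE 0.312). S9 was inside the WT MS range and S7 and S8 were above it.

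**Figure D4:**
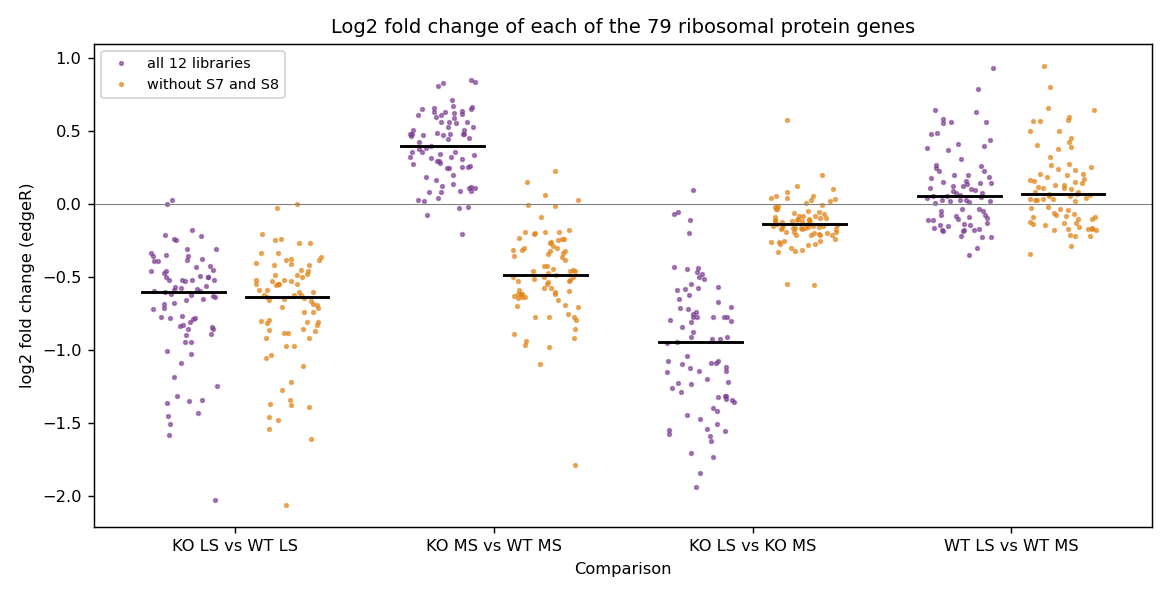
Log2 fold change from edgeR of each of the 79 ribosomal protein genes (points) and their median (bar) in 4 comparisons, with all 12 libraries and without S7 and S8. With all libraries and without S7 and S8 the median was 0.40 and -0.49 for KO MS vs WT MS and -0.94 and -0.13 for KO LS vs KO MS, while KO LS vs WT LS and WT LS vs WT MS hold neither library and could change only through scaling and the shared spread.

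Averaged over both diets, Scly KO against WT had a median of -0.14, with 64 of the 79 genes negative, against 0.03 over all tested genes. None was called by edgeR (0.00833% of all genes), none had an unadjusted p under 0.05 (3.74% of all genes), and DESeq2 (0.226% of all genes) and limma-voom (0.566% of all genes) called none. Without S7 and S8 the median was -0.57 with 77 of 79 negative. These 2 libraries were singled out after their high values were seen, and S9 is then alone in KO MS. Low against adequate selenium in WT had a median of 0.06, with 50 of the 79 genes positive. None was called by edgeR (0% of all genes), DESeq2 (0.0167%) or limma-voom (0.15%), and none had an unadjusted p under 0.05 (2.29%). Its smallest p belonged to the acidic stalk protein Rplp1, with 213.8, 108.2 and 109.3 CPM in WT LS, against 108.9, 96.5 and 85.8 CPM in WT MS (log2 fold change 0.56, SE 0.264). S1 was the highest library, and S2 lay below the highest WT MS library, so the groups overlapped.

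The interaction term, which asks whether the effect of genotype differed between the diets, had a median of -1.07, with 77 of the 79 genes negative, against 0.05 over all tested genes. After adjustment none was called by edgeR (0% of all genes, smallest adjusted p 0.650) or DESeq2 (0%), and limma-voom called 56, all lower (17.3% of all genes). At an unadjusted p under 0.05 edgeR gave 47, all negative, against 6.73% of all genes. The 4 with the smallest p were Rps21 (-2.04, SE 0.549), Rpl9 (-2.20, SE 0.619), Rps27a (-1.92, SE 0.596) and Rps7 (-2.34, SE 0.746), the last another Mdm2-binding protein of the small subunit. Without S7 the median was -0.68, and without S7 and S8 it was -0.21.

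A few genes had log2 fold changes near 0 between KO LS and KO MS. Rpl4, which lines the exit tunnel of the large subunit, had 286.9, 251.6 and 266.2 CPM in KO LS and 224.0, 241.8 and 284.4 CPM in KO MS, against 237.9, 275.1 and 273.7 CPM in WT LS and 279.7, 251.5 and 232.4 CPM in WT MS. Its highest library was 1.28 times its lowest, the narrowest range of the 79, followed by 1.35 times for Rpl23 and 1.47 times for Rpl28, against a median of 3.18 times for the family and 10.1 times for Rps14. S7, the highest library for most of the family, was the lowest for Rpl4. Rpl28, of the large subunit, had 74.0, 70.3 and 57.9 CPM in KO LS and 69.0, 56.95 and 83.6 CPM in KO MS, against 63.1, 68.3 and 70.5 CPM in WT LS and 64.3, 80.2 and 68.2 CPM in WT MS. Each pair of groups overlapped for Rpl28. For KO LS against WT LS the log2 fold change was 0.03 (SE 0.209) for Rpl4 and 0.00 (SE 0.207) for Rpl28. Changes well above these errors could also have been missed, since edgeR called no gene of the family in that comparison. Rps26, which binds the mRNA near the exit channel, had -0.35 (SE 0.213) in that comparison, with all KO LS libraries below all WT LS libraries (66.3, 62.5 and 56.7 CPM in KO LS, against 94.5, 72.7 and 68.8 CPM in WT LS), and -0.11 (SE 0.213) for KO LS against KO MS.

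The stalk proteins are a base and the acidic proteins bound to it. Rplp0, the base of the stalk, had 343.6, 336.4 and 300.2 CPM in KO LS and 960.1, 572.1 and 349.9 CPM in KO MS, against 614.7, 475.2 and 474.1 CPM in WT LS and 369.1, 530.4 and 568.0 CPM in WT MS. Rplp1 had 86.3, 93.2 and 104.3 CPM in KO LS and 95.9, 99.6 and 102.1 CPM in KO MS, without the peak in S7, and Rplp2 had 33.5, 32.04 and 33.6 CPM in KO LS and 51.8, 56.95 and 36.1 CPM in KO MS. The log2 fold change for KO LS against KO MS was -0.94 (SE 0.337) for Rplp0, -0.07 (SE 0.263) for Rplp1 and -0.54 (SE 0.2) for Rplp2. Whether they differ from each other was not tested.

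S1 (WT LS), which had the lowest total count, had the widest spread within the family, with an SD over the 79 deviations from the gene means of 0.57, against 0.099 to 0.445 in the other libraries. No such SD was taken for other genes. S1 was the highest library for 11 of the 79 genes, about the same share as among all other tested genes (14.6%). The 11 included Rpl13a, Rpl22, Rpl31, Rpl39, Rplp1, Rps14, Rps26, Rps27, Rps27a and Rps7. Rps14, a small-subunit protein near the decoding site, had 811.6 CPM in S1, against 196.5 and 174.2 CPM in S2 and S3, 2.13 above their mean on the log2 scale. In the same library 34 of the 79 genes were below the mean of S2 and S3, among them Rps13 (-0.86), Rps4x (-0.80) and Rpl6 (-0.73). The median difference between S2 and S3 was 0.14 on the log2 scale and the largest was 0.80, for Rps4l. The second principal component of the 79 genes carried 9.67% of their variation.

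The list of 17 stalk and assembly core proteins followed the rest of the family. Between KO LS and KO MS 16 of 17 were negative (median -0.94) and 15 had an unadjusted p under 0.05, against 21.9% of all tested genes, and DESeq2 called 4, against 4.79% of all genes with an adjusted p. Rps19, mutated in Diamond-Blackfan anaemia in humans, had 59.3, 68.9 and 54.5 CPM in KO LS and 266.9, 172.6 and 68.3 CPM in KO MS, against 75.6, 103.1 and 93.2 CPM in WT LS and 72.1, 101.5 and 135.0 CPM in WT MS. Rpl41 had 228.9, 242.8 and 197.1 CPM in KO LS and 1030, 445.4 and 213.5 CPM in KO MS, against 566.6, 396.3 and 323.7 CPM in WT LS and 291.6, 432.3 and 515.0 CPM in WT MS. In both genes the KO LS libraries lay below all WT libraries, S9 was close to them, and S7 was highest.

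Several of the genes are paralogs of another ribosomal protein. Rpl10l, Rpl39l and Rpl3l, known for expression in testis or muscle, had no more than 0.252 CPM in any library and were not tested, and Rpl10l was listed at 0 throughout. Rps27l, a p53 target and paralog of Rps27, was listed at 322 CPM per kb, against 89.7 for Rps27. Rps27 had 2 copies and values that were not whole in 11 of the 12 libraries, so its level depends on how reads were divided. Rps27l had 94.7, 131.4 and 53.4 CPM in KO LS and 432.6, 230.1 and 98.2 CPM in KO MS, against 170.3, 159.1 and 129.4 CPM in WT LS and 111.5, 138.2 and 176.9 CPM in WT MS, and KO LS overlapped both WT groups. Rps27 had 17.4, 20.1 and 13.5 CPM in KO LS and 57.3, 36.9 and 18.9 CPM in KO MS, against 71.5, 28.1 and 27.4 CPM in WT LS and 21.8, 26.8 and 31.97 CPM in WT MS, and S1 was its highest library, which it was not for Rps27l. X-linked Rps4x had 135.2, 126.3 and 104.6 CPM in KO LS, against 96.3, 159.9 and 176.7 CPM in WT LS, and overlapped. Its single-exon paralog Rps4l had 9.22, 10.4 and 6.46 CPM in KO LS, against 13.4, 11.5 and 20.4 CPM in WT LS, without overlap (log2 fold change -0.80, SE 0.270, adjusted p = 0.439 from edgeR). Rpl22 (-1.19, SE 0.388), without which mice are viable, was also separate in that comparison, with 55.2, 60.2 and 39.1 CPM in KO LS, against 196.5, 81.6 and 74.0 CPM in WT LS.

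Genes other than ribosomal proteins moved with transcript length in the same libraries. The 79 genes had a median transcript of 791 bases, against 2870 bases for all tested genes, and 55 of them were 1000 bases or shorter. For KO LS against KO MS, the 128 other genes with transcripts of 500 bases or less had a median log2 fold change of -0.79 and the 683 of over 500 to 1000 bases -0.65, while the 3570 of over 4000 bases had 0.36. Ribosomal protein genes of the same lengths had medians of -1.15 (15 genes) and -1.01 (40 genes). The 20 ribosomal protein genes of over 1000 to 2000 bases had -0.84, against -0.30 for 2624 other genes of that length. The 3 of over 2000 to 4000 bases had -1.04, against 0.08 for 4778 other genes, and the 1 of over 4000 bases had -1.14. Both bins depend on the 1 representative transcript taken per gene. They hold Rps20 (3706 bases) and Rps15a (5179 bases), whose length is unusually long for the family, so they say little about long transcripts. For KO LS against WT LS the corresponding medians were -0.84 against -0.51 (500 bases or less), -0.56 against -0.41 (over 500 to 1000) and -0.61 against -0.17 (over 1000 to 2000). For KO MS against WT MS they were 0.48 against 0.37, 0.39 against 0.21 and 0.37 against 0.09. For KO LS against KO MS, the Spearman correlation of log2 fold change with transcript length was 0.461 over all genes with a known length and 0.165 within the family. Whether the family differs from other genes of its length was not tested. By library, the 811 other genes of 1000 bases or less had a median of 0.79 in S7, 0.24 in S8, -0.35 in S9 and -0.59 in S12, beside 0.998, 0.44, -0.41 and -0.65 for the 79 genes.

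**Figure D5:**
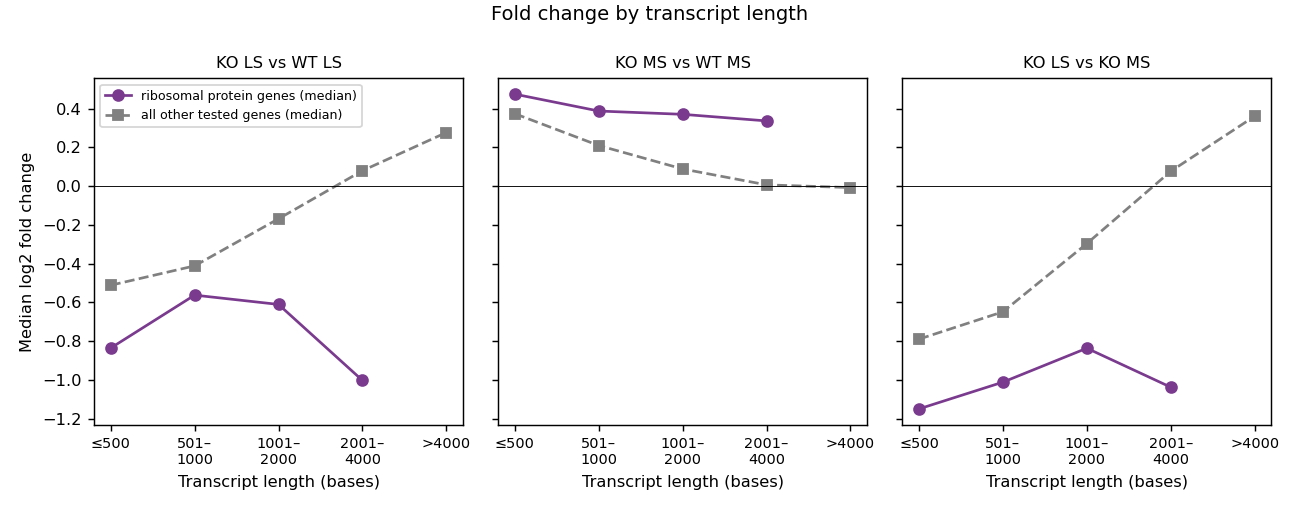
Median log2 fold change from edgeR by transcript length for the ribosomal protein genes (circles, bins with at least 3 genes) and all other tested genes (squares) in 3 comparisons. Short transcripts of both kinds lie on the same side of 0, at -1.15 and -0.79 for 500 bases or less in KO LS vs KO MS, and the medians of the other genes approach or cross 0 with length.

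After a smooth dependence on length and GC content of the transcripts was taken out of each library, the median of the 79 genes was -0.32 for KO LS against KO MS (63 negative), -0.21 for KO LS against WT LS (62 negative), 0.17 for KO MS against WT MS (17 negative) and -0.44 for the interaction (63 negative). At an unadjusted p under 0.05, 28 genes were then lower and 1 higher for KO LS against KO MS, against 15.6% of all genes, and 18 lower for KO LS against WT LS, against 11.1% of all genes. The medians kept their direction in these 4 comparisons and were closer to 0. The correction used the same representative transcript lengths. Rpl9 had -0.94, Rps18 -0.95 and Rps21 -0.92 for KO LS against KO MS after the correction, with adjusted p = 0.304 from edgeR for each.

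The rest of the translation machinery was read from lists chosen for it, and over all tested genes 11.2% had an unadjusted p under 0.05 for KO LS against WT LS and 21.9% for KO LS against KO MS, in either direction. Ribosomal proteins whose symbols fall outside the rule moved alike: 8 of 8 tested were negative for KO LS against WT LS (median -0.63) and for KO LS against KO MS (median -1.10), and 4 and 7 of them had an unadjusted p under 0.05, but the medians were -0.18 and -0.04 with the length and GC trend removed. Rack1, a scaffold protein on the small subunit, had 235, 254 and 194 CPM in KO LS and 934, 566 and 246 CPM in KO MS, against 676, 403 and 353 CPM in WT LS and 287, 401 and 506 CPM in WT MS. Other TOP mRNAs, which encode translation factors and their partners, had a median of -0.54 for KO LS against KO MS and of 0.03 with the length and GC trend removed, with 12 of 17 negative and 7 lower at an unadjusted p under 0.05 before that correction, among them Eef1b2 (-1.34, SE 0.377), Eif3e (-1.15, SE 0.347) and Eif3h (-1.22, SE 0.408). Eef1a1, which delivers aminoacyl-tRNA, had 4593, 4972 and 2632 CPM in KO LS and 13810, 7895 and 4882 CPM in KO MS, against 5523, 6715 and 6547 CPM in WT LS and 5631, 7246 and 8717 CPM in WT MS. Eef2, the translocation factor, which also has a TOP mRNA, had 1010, 793 and 749 CPM in KO LS and 380, 458 and 1056 CPM in KO MS, against 513, 696 and 819 CPM in WT LS and 897, 675 and 520 CPM in WT MS. Eef2 was lowest in S7 and S8, where most ribosomal protein genes were highest.

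Mitochondrial ribosomal proteins, which are encoded in the nucleus and make up a separate ribosome, had a median of -0.68 for KO LS against KO MS (71 of 77 negative, 49 lower at an unadjusted p under 0.05, against 21.9% of all tested genes in either direction) and of -0.41 for KO LS against WT LS (71 of 77 negative, 12 lower at an unadjusted p under 0.05, against 11.2%). Their median transcript was 1280 bases, and with the length and GC trend removed the medians were -0.20 in both. Ribosome biogenesis factors, with a median transcript of 2827 bases, did not share the direction. Their median was 0.20 for KO LS against WT LS, with 18 of 26 positive and 2 higher at an unadjusted p under 0.05, against 11.2% of all tested genes in either direction, Polr1b (0.81, SE 0.286) and Polr1a (1.06, SE 0.462), both subunits of RNA polymerase I. Between KO LS and KO MS 5 were higher and 2 lower at an unadjusted p under 0.05, against 21.9% of all tested genes in either direction, the 2 being the export adaptor Nmd3 (-0.81, SE 0.257) and Nop10 (-0.92, SE 0.338). The median of these factors for KO LS against KO MS was 0.16. With the length and GC trend removed it was 0.22, and for KO LS against WT LS it was also 0.22. The noncoding hosts of small nucleolar RNAs, which also begin with a TOP motif, had a median of -0.78 for KO LS against KO MS (7 of 7 negative) and 0.51 for KO MS against WT MS (7 of 7 positive). With the length and GC trend removed the median for KO LS against KO MS was 0.46, on the other side of 0, and for KO MS against WT MS it was 0.20. Without S7 and S8, with S9 then alone in KO MS, the medians were 0.22 for KO LS against KO MS and -0.53 for KO MS against WT MS.

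Among 17 regulators, Eif4ebp3, a repressor of cap-dependent initiation, had the smallest p for KO LS against WT LS (log2 fold change -1.59, SE 0.367, adjusted p = 0.342 from edgeR). DESeq2 called it in this comparison (adjusted p = 0.0155, 0.393% of all genes called) and in the mean of both diets (adjusted p = 0.0174, 0.226%). Eif4ebp3 had 19.98, 11.7 and 7.74 CPM in KO LS and 11.7, 20.9 and 13.4 CPM in KO MS, against 44.6, 38.2 and 35.6 CPM in WT LS and 15.9, 34.9 and 25.6 CPM in WT MS. Mtor, the kinase that controls TOP mRNAs, had 68.9, 59.3 and 99.5 CPM in KO LS and 29.0, 47.7 and 73.7 CPM in KO MS, against 41.9, 47.7 and 42.4 CPM in WT LS and 39.3, 32.7 and 36.5 CPM in WT MS. Larp1, the TOP-binding repressor, had 112, 76.3 and 118 CPM in KO LS and 18.2, 28.4 and 105 CPM in KO MS, against 60.6, 55.1 and 60.8 CPM in WT LS and 95.4, 43.5 and 38.7 CPM in WT MS. Larp1 was lowest in S7 and S8, and S9, S10 and S12 were its 3 highest libraries, with S4 next. Its log2 fold change was 0.80 (SE 0.525, unadjusted p = 0.152 from edgeR) for KO LS against WT LS and 1.01 (SE 0.526, unadjusted p = 0.0760 from edgeR) for KO LS against KO MS. Other genes of over 4000 bases also had their lowest medians in S7 (-0.43) and S8 (-0.16) and their highest in S12 (0.35), S10 (0.22) and S9 (0.22). A link between Larp1 and the ribosomal protein genes was not tested. The median transcript of these regulators was 6018 bases, and with the length and GC trend removed their median for KO LS against WT LS was 0.02, against 0.28 without it.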

How the data were processed

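The paper's methods name FastQC for quality control, Cutadapt for trimming, STAR with mm10 for alignment and the Partek E/M method for assigning reads of these poly(A) liver libraries to genes. No versions and no gene annotation were found in the sources used here. Per the file headers, the authors' table holds estimated counts for each gene, not scaled. A second deposited table holds the authors' own DESeq2 fold changes and p-values and was not used. Every value column named its group, and 0 columns were left out.

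Estimated counts were rounded. The filterByExpr function with minimum count 10 left 12009 genes, among them all 79 members. These were scaled by TMM and tested by edgeR 4.0.16 (R 4.3.3; quasi-likelihood) in 1 model of the 4 groups, with Benjamini-Hochberg adjustment over all tested genes and a threshold of 0.05. Alternatives were DESeq2 1.42.0, limma 3.58.1 (voom with quality weights), other scalings and filters, unrounded counts, only the groups compared, each library left out, S7 and S8 left out, and a length and GC trend (splines with 4 degrees of freedom; lengths for 98.8% of tested genes from GENCODE transcripts of the same assembly). A further alternative left out Rn45s. For KO LS against KO MS, DESeq2 gave an adjusted p to 2691 genes. The tests were tried on simulated data. Copies were searched with BLAST, and start sites came from RefSeq.

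The members and lists were chosen with earlier results of these data known. By rule, the text names the 5 most abundant members of each subunit, up to 4 members per direction and comparison with the smallest p, Rps21, the core and paralog lists, and up to 3 genes with the smallest p of each other list. Rpl6, Rpl23, Rpl34, Rps13, Rps15, Eef1a1, Eef2, Larp1 and the libraries singled out were chosen after their values were seen, as were genes listed only as highest in S1. Some genes that this rule names are not reported here.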

Additional observations from a re-analysis of the deposited data

How the results depend on the processing

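The median log2 fold change of the 79 genes kept its sign under all 24 alternatives for KO LS against WT LS and for KO LS against KO MS, and under all 23 for the interaction and for the mean of both diets. For KO MS against WT MS it kept its sign under 23 of 24, and for WT LS against WT MS under 22 of 24. With the length and GC trend removed the medians were -0.207 for KO LS against WT LS, -0.324 for KO LS against KO MS and -0.438 for the interaction. Without S7 and S8 they were -0.485 for KO MS against WT MS, -0.568 for the mean of both diets, -0.133 for KO LS against KO MS and -0.207 for the interaction. With each library left out in turn, the median for the interaction lay between -1.397 (without S9) and -0.683 (without S7). Counts of called genes differed by tool: limma-voom called 3 for KO LS against WT LS, 19 for KO MS against WT MS, 71 for KO LS against KO MS and 56 for the interaction, and DESeq2 called 29 for KO LS against KO MS, where edgeR called 0. Leaving out 1 library at a time, edgeR called between 0 and 67 genes for KO LS against KO MS, the 67 without S9, where 32.5% of all tested genes were called. The cause of these differences was not tested. For the 12 single-gene results tried, 268 of 284 alternative values stayed on the same side of the threshold, 16 passed it, and none changed direction. No paired analysis was possible because the library columns carry S1 to S12 and not the replicate numbers of the labels. Precision is limited by 3 libraries per group and the split within KO MS.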
